A study of Homo sapiens with 12 samples.

Results

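CALB2, UCN2, FPR1, KCNAB3 and PLXNA4 are 5 genes whose transcripts were lower with siTRIP12 when OTUD5 had also been knocked down. They were selected on that fall, that is, on the fitted log2 difference in read counts between cells given siTRIP12 together with siOTUD5 and cells given siOTUD5 alone. The count table listed 46427 genes, of which 16283 had enough reads to be tested, and all 5 chosen genes were among those tested. The values of that choosing comparison are therefore given as a description, with no test. That difference does not contain the means of the libraries with siTRIP12 alone or with scrambled siRNA. The fit behind it took its spread from all 12 libraries, however. Earlier results from the siTRIP12-alone and scrambled libraries were also known when the genes were picked. The p-values of the 5 genes with siTRIP12 alone are therefore not tests on unused data.

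The study's design names HT1080, a human fibrosarcoma line, and RNA was sequenced from 4 groups of 3 libraries each. The cell line field of the labels counts up by 1 from library to library, starting at HT1080, and all 12 libraries were taken as HT1080 here. The first group received a scrambled siRNA, another siTRIP12 and another siOTUD5, and the last group received both siTRIP12 and siOTUD5, which is here called the double knockdown. TRIP12 is a HECT-type ubiquitin ligase and OTUD5 is a deubiquitylase of the ovarian tumour (OTU) family, an enzyme that removes ubiquitin. The siRNA sequences and amounts are not given in the sources used here, nor is it stated that the 3 libraries of a group came from separate cultures, so the p-values measure the spread between these libraries, which may be technical.

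As background, the 5 genes act at different points of cell signalling. UCN2 encodes urocortin 2, a secreted peptide of the corticotropin-releasing factor family that acts through the receptor CRHR2. FPR1 encodes the formyl peptide receptor, a G protein-coupled receptor best known in neutrophils, where it senses bacterial and mitochondrial N-formyl peptides, and PLXNA4 encodes plexin A4, a receptor for semaphorins that guides growing axons together with neuropilins. KCNAB3 encodes a cytoplasmic beta subunit of Kv1 potassium channels. CALB2 encodes calretinin, an EF-hand calcium-binding protein known as a marker of some neurons and of mesothelium.

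Libraries held 37912312 to 43881471 reads counted on genes. TRIP12 itself was at 321.5 ± 39.8 CPM (the read count normalised to scaled library size; mean ± SD, n = 3) with scrambled siRNA, at 41.8 ± 3.92 CPM with siTRIP12 and at 53.2 ± 2.70 CPM in the double knockdown. OTUD5 was at 59.8 ± 1.13 CPM with scrambled siRNA, rose to 73.8 ± 0.275 CPM with siTRIP12 alone (log2 change 0.30 ± 0.07, edgeR adjusted p = 0.00346), and was at 11.1 ± 0.749 CPM with siOTUD5 and at 10.9 ± 1.34 CPM in the double knockdown. The remaining TRIP12 transcript was thus 12.99% of the scrambled mean with siTRIP12 alone and 16.5% in the double knockdown, a difference of 0.35 ± 0.08 (log2 ± SE) that passed the test (edgeR quasi-likelihood test, Benjamini-Hochberg adjusted p = 0.00794). The part of these shifts in TRIP12 and OTUD5 in the differences given below was not tested. The 7 mesenchymal markers summed to between 6350 and 6616 CPM in the scrambled libraries and VIM had the highest level among them.

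A total of 770 protein-coding genes were called lower there, averaged 100 or more reads with siOTUD5, and had double-knockdown libraries that were all below the siOTUD5 libraries. Ranked by fall, the 5 genes took ranks 2 to 6 of these, after TRIP12 itself. Their log2 changes in the double knockdown against siOTUD5 were -1.42 ± 0.13 (SE) for CALB2, -1.28 ± 0.13 for UCN2, -1.28 ± 0.25 for KCNAB3, -1.26 ± 0.20 for FPR1 and -1.23 ± 0.16 for PLXNA4. Just outside stood MMP9 at -1.16 ± 0.10, VGF at -1.11 ± 0.13 and ADAM8 at -1.03 ± 0.13. The step from PLXNA4 to MMP9 was smaller than either standard error, so the border of the group is not a gap in the data. For scale, 5.07% of tested genes were called lower and 3.35% higher in that comparison, and 4.97% had all 6 libraries with siTRIP12 below all 6 libraries without it, as all 5 chosen genes did. Nothing is read from those shares, since the choice used this comparison.

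**Figure D1:**
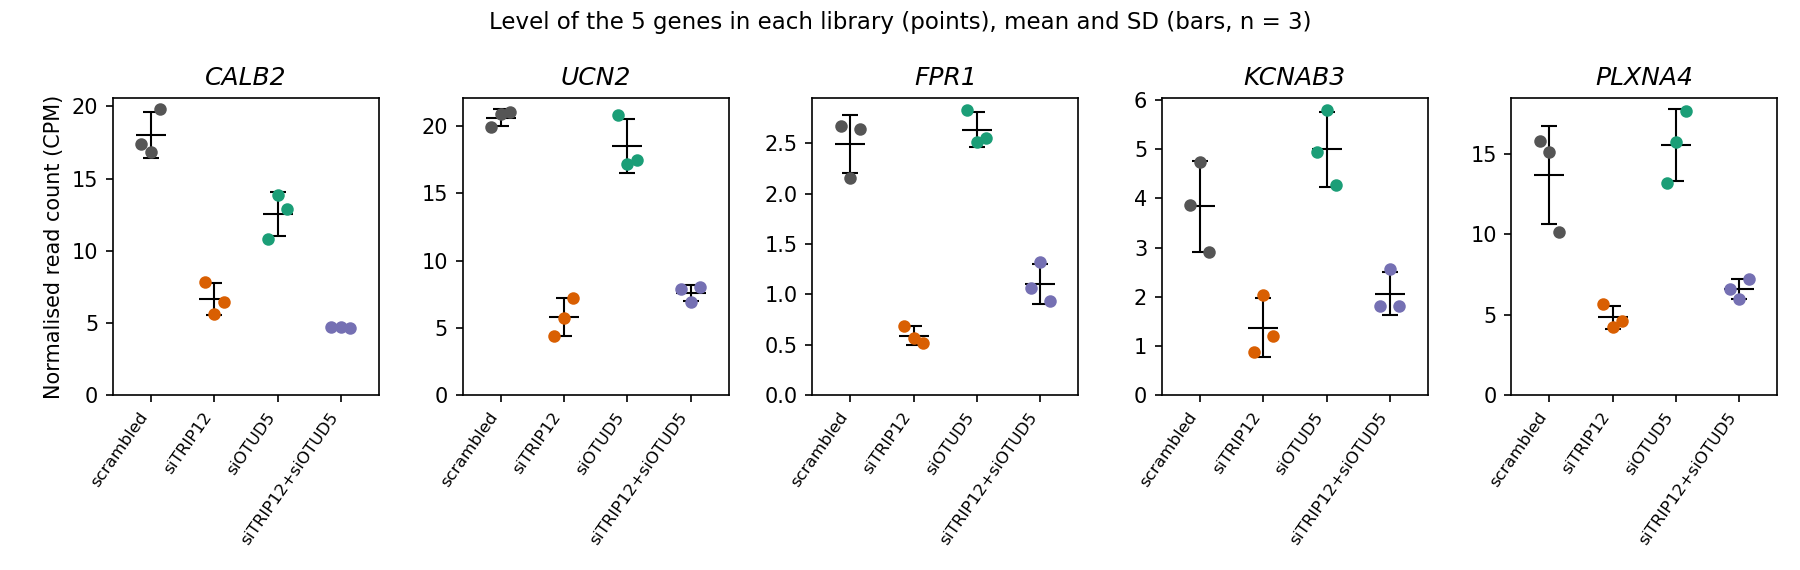
CPM of CALB2, UCN2, FPR1, KCNAB3 and PLXNA4 in each of the 12 libraries (points), with the mean (long bar) and SD (whiskers) of each group of 3, on axes that start at 0. For each gene the 6 libraries with siTRIP12, alone or with siOTUD5, lie below the 6 without it.

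Promoter sequence was available for 3 of the 5 genes in the RefSeq promoter table (GRCh38.p14), which gives 250 bases before and 50 bases from each annotated start. They are shown because the data of these genes moved in the same direction and because UCN2 and FPR1 share a motif that PLXNA4 lacks in this window. The sequences read 5′ to 3′ on the strand of the gene, and capitals mark matches to the AP-1 motif TGANTCA, which is its own reverse complement.
UCN2 promoter (chr3:48563732-48564031, minus strand): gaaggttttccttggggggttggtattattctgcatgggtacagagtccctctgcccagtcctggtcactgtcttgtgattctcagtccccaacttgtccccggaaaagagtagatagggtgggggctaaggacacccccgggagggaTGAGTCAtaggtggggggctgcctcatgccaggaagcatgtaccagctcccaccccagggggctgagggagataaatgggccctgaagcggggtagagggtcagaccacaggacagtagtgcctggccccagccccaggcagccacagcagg
FPR1 promoter (chr19:51751829-51752128, minus strand): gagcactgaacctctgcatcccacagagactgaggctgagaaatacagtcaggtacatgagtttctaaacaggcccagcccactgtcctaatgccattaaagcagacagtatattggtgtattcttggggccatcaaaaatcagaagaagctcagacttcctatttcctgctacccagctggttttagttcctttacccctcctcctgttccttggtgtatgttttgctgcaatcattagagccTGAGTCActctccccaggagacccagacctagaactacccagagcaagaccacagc
PLXNA4 promoter (chr7:132576421-132576720, minus strand): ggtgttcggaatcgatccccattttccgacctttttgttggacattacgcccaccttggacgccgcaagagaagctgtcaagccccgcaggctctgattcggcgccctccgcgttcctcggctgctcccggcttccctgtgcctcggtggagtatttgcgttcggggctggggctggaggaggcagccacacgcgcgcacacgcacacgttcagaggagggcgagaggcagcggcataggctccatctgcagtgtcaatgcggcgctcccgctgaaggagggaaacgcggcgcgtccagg
The UCN2 match spans bases -102 to -96 from the start, and the FPR1 match spans -6 to +1, so that it covers the annotated start itself. Both read tgagtca. The motif occurs in 5.8% of the 17094 promoters that belong to tested genes and in 7.7% of all 35116 promoters in the table. None of the 3 promoters held the CRE motif TGACGTCA, the E-box CACGTG, the TATA motif TATAAA, the GC box GGGCGG or the NF-kB motif on either strand, and the GC box was in 63.1% of the promoters of tested genes. G and C made up 60.0% of the UCN2 window, 48.3% of the FPR1 window and 64.3% of the PLXNA4 window. The PLXNA4 start used in the table lies inside the outer span of the gene, so it stands for one of its annotated starts. A match or its absence describes these letters and does not show binding.

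With siTRIP12 alone, all 5 genes fell against scrambled siRNA, to between 23.8% and 36.9% of the scrambled mean. FPR1 fell most, and CALB2 and KCNAB3 least. In that comparison 17.4% of tested genes were called lower and 14.5% higher, and 21.1% had all 3 siTRIP12 libraries below all 3 scrambled ones. The split between directions depends on the scaling of the libraries: 2367 genes were called higher and 2827 lower with TMM scaling, against 2964 and 2232 with upper-quartile scaling. All 5 genes fell under both. Because the genes were chosen with such results known, their count is no independent support for the fall. In RNA from whole cultures, fewer cells of a type and less RNA per cell cannot be told apart.

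UCN2, the secreted ligand, lies on chromosome 3 at 48561718 to 48563781 (GRCh38.p14, gene ID 90226). The 3 scrambled libraries read 19.9, 20.9 and 21.1 CPM, and the 3 siTRIP12 libraries read 4.39, 5.76 and 7.24 CPM. With siOTUD5 the values were 20.8, 17.2 and 17.5 CPM, and in the double knockdown 7.86, 6.89 and 8.03 CPM. Every library with siTRIP12 was thus well below every library without it, and the siOTUD5 libraries overlapped the scrambled ones. The fall with siTRIP12 alone was -1.84 ± 0.13 (log2 ± SE, 95% confidence interval -2.12 to -1.56, edgeR quasi-likelihood test, adjusted p = 2.24e-08), to 28.1% of the scrambled mean. Beside siOTUD5 the level went to 41.1% of the siOTUD5 mean.

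FPR1, the formyl peptide receptor, lies on chromosome 19 at 51745172 to 51751878 (gene ID 2357). It was a low transcript, with 84 to 111 reads in the scrambled libraries and 20 to 31 reads in the siTRIP12 libraries. The scrambled libraries read 2.68, 2.16 and 2.64 CPM and the siTRIP12 libraries 0.691, 0.571 and 0.515 CPM. With siOTUD5 they read 2.83, 2.52 and 2.56 CPM, and in the double knockdown 1.06, 1.32 and 0.932 CPM. The 4 groups fell into 3 levels: scrambled and siOTUD5 libraries overlapped, the double knockdown lay below both, and siTRIP12 alone lay below the double knockdown without overlap. The fall with siTRIP12 alone was -2.06 ± 0.22 (adjusted p = 1.36e-06 in the same edgeR test).

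PLXNA4, the semaphorin receptor, spans chromosome 7 from 132123340 to 132648688 (gene ID 91584). Scrambled libraries read 15.8, 15.1 and 10.2 CPM, siTRIP12 libraries 5.64, 4.23 and 4.61 CPM, siOTUD5 libraries 13.2, 15.8 and 17.7 CPM, and double-knockdown libraries 6.61, 5.94 and 7.23 CPM. The third scrambled library was the lowest of the 6 without siTRIP12, yet still above all 6 with it. The fall with siTRIP12 alone was -1.50 ± 0.16 (edgeR adjusted p = 3.39e-06), and the double knockdown stood at 42.5% of the siOTUD5 mean.

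KCNAB3, the potassium channel subunit, lies on chromosome 17 at 7921859 to 7929856 (gene ID 9196). Scrambled libraries read 3.87, 4.73 and 2.90 CPM, siTRIP12 libraries 0.869, 2.03 and 1.21 CPM, siOTUD5 libraries 4.94, 5.79 and 4.27 CPM, and double-knockdown libraries 1.81, 2.56 and 1.81 CPM. Its libraries spread more within a group than those of the other 4 genes: the second siTRIP12 library was above 2 of the 3 double-knockdown libraries. The fall with siTRIP12 alone was -1.48 ± 0.26 (edgeR adjusted p = 0.000398), the widest standard error of the 5.

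CALB2, the calcium-binding protein calretinin, lies on chromosome 16 at 71358723 to 71390433 (gene ID 794). Scrambled libraries read 17.4, 16.8 and 19.8 CPM and siTRIP12 libraries 7.86, 5.62 and 6.46 CPM. With siOTUD5 they read 10.8, 13.8 and 12.9 CPM, and in the double knockdown 4.70, 4.70 and 4.66 CPM. CALB2 alone among the 5 had 4 groups with no overlap between any pair: the order was scrambled, siOTUD5, siTRIP12, double knockdown. The fall with siTRIP12 alone was -1.44 ± 0.12 (edgeR adjusted p = 9.69e-08), and beside siOTUD5 the level went to 37.5% of the siOTUD5 mean.

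**Figure D2:**
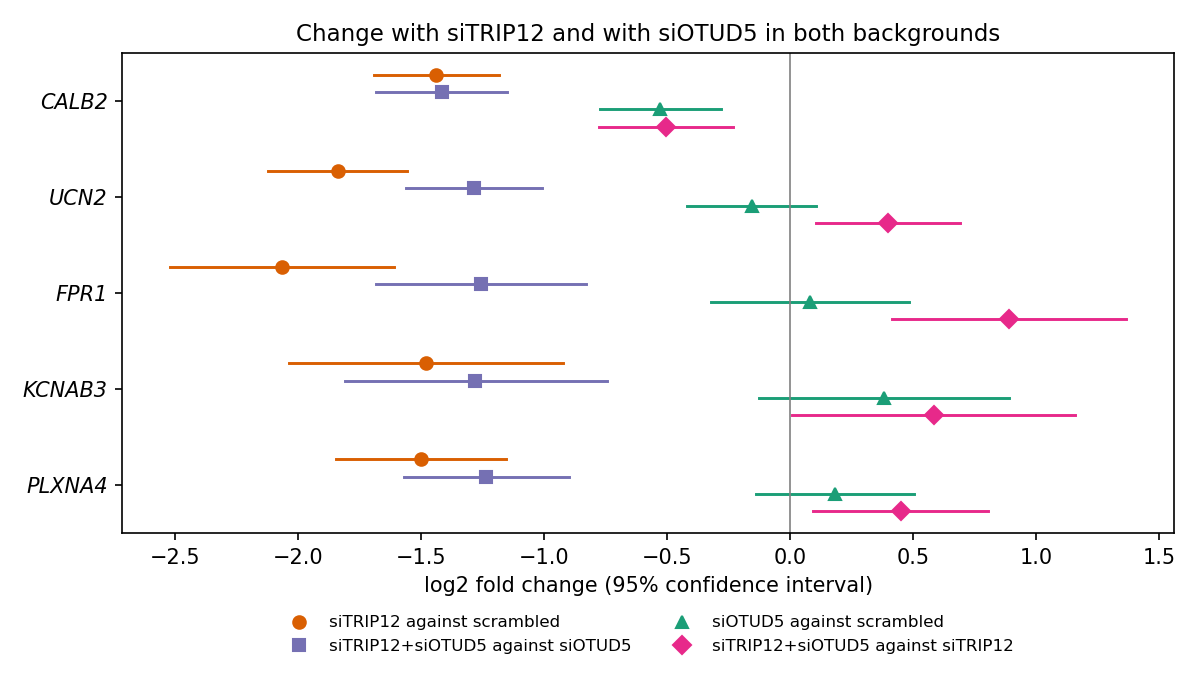
Log2 fold change of the 5 genes with siTRIP12 (circles, against scrambled; squares, beside siOTUD5) and with siOTUD5 (triangles, against scrambled; diamonds, beside siTRIP12), with 95% confidence intervals as lines. The siTRIP12 changes lie between -2.06 and -1.23; the siOTUD5 changes lie on both sides of 0, with CALB2 at -0.53 and -0.51.

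Per transcript length, the 5 genes fell into 2 tiers in scrambled cells. UCN2 was at 12.8 ± 0.293 FPKM (the authors' length-normalised values, mean ± SD, n = 3) and CALB2 at 11.4 ± 0.926 FPKM, at or above 69.8% and 67.3% of tested genes. FPR1 was at 1.75 ± 0.235 FPKM, KCNAB3 at 1.37 ± 0.314 FPKM and PLXNA4 at 1.07 ± 0.203 FPKM, at or above 33.4%, 30.8% and 28.2% of tested genes. The FPKM ranges of FPR1 and KCNAB3 overlapped, as did those of KCNAB3 and PLXNA4, so that the order within the lower tier is not settled by these libraries.

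The remaining comparisons share siOTUD5 or double-knockdown libraries with the comparison that chose the genes, and the choice favours high values in the former and low values in the latter. They are therefore given for the 5 genes as estimates with 95% confidence intervals, with no test. With siOTUD5 alone CALB2 stood at 69.5% of the scrambled mean, a log2 difference of -0.53 ± 0.12 (-0.77 to -0.28), with all 3 siOTUD5 libraries below all 3 scrambled ones. In the other 4 genes the 2 groups overlapped. The difference was -0.16 for UCN2 (-0.42 to 0.10), 0.08 for FPR1 (-0.32 to 0.48), 0.18 for PLXNA4 (-0.14 to 0.51) and 0.38 for KCNAB3 (-0.13 to 0.89). These intervals leave room for differences in either direction, so they do not show that the 4 genes were unaffected. Of all tested genes, edgeR called 11.9% lower and 11.4% higher with siOTUD5.

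Between the double knockdown and siTRIP12 alone, CALB2 differed by -0.51 ± 0.13 and FPR1 by 0.89 ± 0.23 on the log2 scale, in both without overlap between the libraries. UCN2 differed by 0.40 ± 0.14, PLXNA4 by 0.45 ± 0.17 and KCNAB3 by 0.58 ± 0.27. The double-knockdown mean was thus below the siTRIP12 mean for CALB2 and above it for the other 4. The choice, which favours low values in the double knockdown, goes the same way as the CALB2 difference and no count is read from these 5 estimates. Single libraries set much of their size: CALB2 was at -0.37 without the first siTRIP12 library, and KCNAB3 was at 0.99 without the second. Among all tested genes edgeR called 6.93% lower and 8.78% higher.

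In the double knockdown CALB2 stood at 26.0% of the scrambled mean, a log2 difference of -1.94 ± 0.13, and this was the lowest group mean of that gene. UCN2 stood at 36.8% (-1.44 ± 0.13), FPR1 at 44.3% (-1.17 ± 0.20), PLXNA4 at 48.2% (-1.05 ± 0.16) and KCNAB3 at 53.8% (-0.90 ± 0.25). No double-knockdown library of any of the 5 reached a scrambled one. Genes that read low in these libraries were what the choice favoured, so these levels are a description. Of all tested genes, edgeR called 16.2% lower in that comparison.

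How the fall with siTRIP12 compared between cells with and without siOTUD5 is given by the interaction, the log2 change beside siOTUD5 minus the log2 change beside scrambled siRNA. Its first term is the choosing comparison, so it is an estimate with no test for the 5 genes. The choice favours large falls in that term, which pushes the interaction towards negative values. For CALB2 it was 0.02 (95% confidence interval -0.35 to 0.39), for KCNAB3 0.20 (-0.56 to 0.97) and for PLXNA4 0.27 (-0.21 to 0.75). UCN2 had 0.55 (0.16 to 0.95) and FPR1 0.81 (0.19 to 1.43), values that stand for a smaller fall beside siOTUD5. CALB2 and KCNAB3 dropped below 0 when some libraries were left out, to -0.10 and -0.06 at the lowest, and CALB2 also with upper-quartile scaling (-0.002). Over all tested genes edgeR called 8.16% in either direction (751 higher and 578 lower with TMM scaling, 553 and 638 with upper-quartile scaling).

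The 3 genes just outside the group differed from it in how far siTRIP12 lowered them without siOTUD5. MMP9, a secreted gelatinase, changed by -3.26 with siTRIP12 alone (edgeR adjusted p = 4.78e-13), and its interaction was 2.10. VGF, a secreted neuroendocrine peptide precursor, changed by -0.33 (adjusted p = 0.0622) with an interaction of -0.79. ADAM8, a membrane metalloprotease, changed by -0.90 (adjusted p = 1e-04) with an interaction of -0.13. A similar fall beside siOTUD5 thus went with a larger, a smaller and a similar fall beside scrambled siRNA in these 3 genes. The fall beside siOTUD5 started from different levels. With siOTUD5 alone MMP9 stood at 51.8% of its scrambled mean, VGF at 196.6% and ADAM8 at 179.4%. In the double knockdown they stood at 23.1%, 91.2% and 88.0%. These 3 genes were ranked on the choosing comparison too, so their interactions are a description.

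UCN2 sits in a stretch of chromosome 3 where its neighbours also fell. PFKFB4, an enzyme that sets the level of fructose 2,6-bisphosphate, overlaps UCN2 on the same strand (48517684 to 48563136), and COL7A1, which encodes the anchoring-fibril collagen VII, ends 292 bases before the UCN2 start (48564073 to 48595329). PFKFB4 was at 38.5 ± 1.91 CPM with scrambled siRNA, 19.3 ± 3.34 with siTRIP12, 32.6 ± 1.34 with siOTUD5 and 19.0 ± 1.27 in the double knockdown. COL7A1 was at 26.4 ± 1.77, 9.33 ± 2.12, 26.1 ± 1.65 and 14.9 ± 0.793 CPM in the same order. With siTRIP12 alone PFKFB4 fell by 1.00 ± 0.10 (log2, edgeR adjusted p = 5.96e-07) and COL7A1 by 1.50 ± 0.12 (adjusted p = 9.07e-08), beside the 1.84 of UCN2.

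Beside siOTUD5 the same neighbours fell by 0.78 ± 0.10 (PFKFB4, edgeR adjusted p = 0.000114) and 0.81 ± 0.12 (COL7A1, adjusted p = 0.000407). COL7A1 was higher in the double knockdown than with siTRIP12 alone (0.68 ± 0.12, adjusted p = 0.00119), and PFKFB4 differed by -0.03 (adjusted p = 0.893). SHISA5, 56908 bases from UCN2 on the other side, changed by -0.04 with siTRIP12 (adjusted p = 0.698) and by -0.11 beside siOTUD5 (adjusted p = 0.316). How the deposited counts assign reads in the bases that UCN2 and PFKFB4 share, and whether they use strand, is not stated in the sources used here, so the UCN2 and PFKFB4 values are uncertain to that extent. The part of shared reads in the UCN2 fall was not tested.

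The nearest tested genes on each side of the other 4 were read in the same way. CMTR2, an mRNA cap methyltransferase 69001 bases from CALB2, was at 23.4 ± 2.79 CPM with scrambled siRNA and 10.3 ± 0.718 with siTRIP12, a fall of 1.18 ± 0.09 (edgeR adjusted p = 3.84e-08). Beside siOTUD5 it fell by 0.50 ± 0.09 (adjusted p = 0.00223). ZNF23, 57164 bases away on the other side, changed by 0.27 (adjusted p = 0.0596). Next to FPR1, its paralog FPR2 held at most 18 reads in any library and changed by -1.25 ± 0.51 (adjusted p = 0.0691), and SPACA6 fell by 0.32 (adjusted p = 0.0358). Next to KCNAB3, TRAPPC1 at 489 bases changed by 0.03 (adjusted p = 0.723), while RNF227 at 5541 bases rose by 0.83 (adjusted p = 0.0032). On the sides of PLXNA4, CHCHD3 changed by -0.06 (adjusted p = 0.475), and CAPZA1P4, with at most 16 reads in any library, by 1.29 ± 0.57 (adjusted p = 0.0925).

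**Figure D3:**
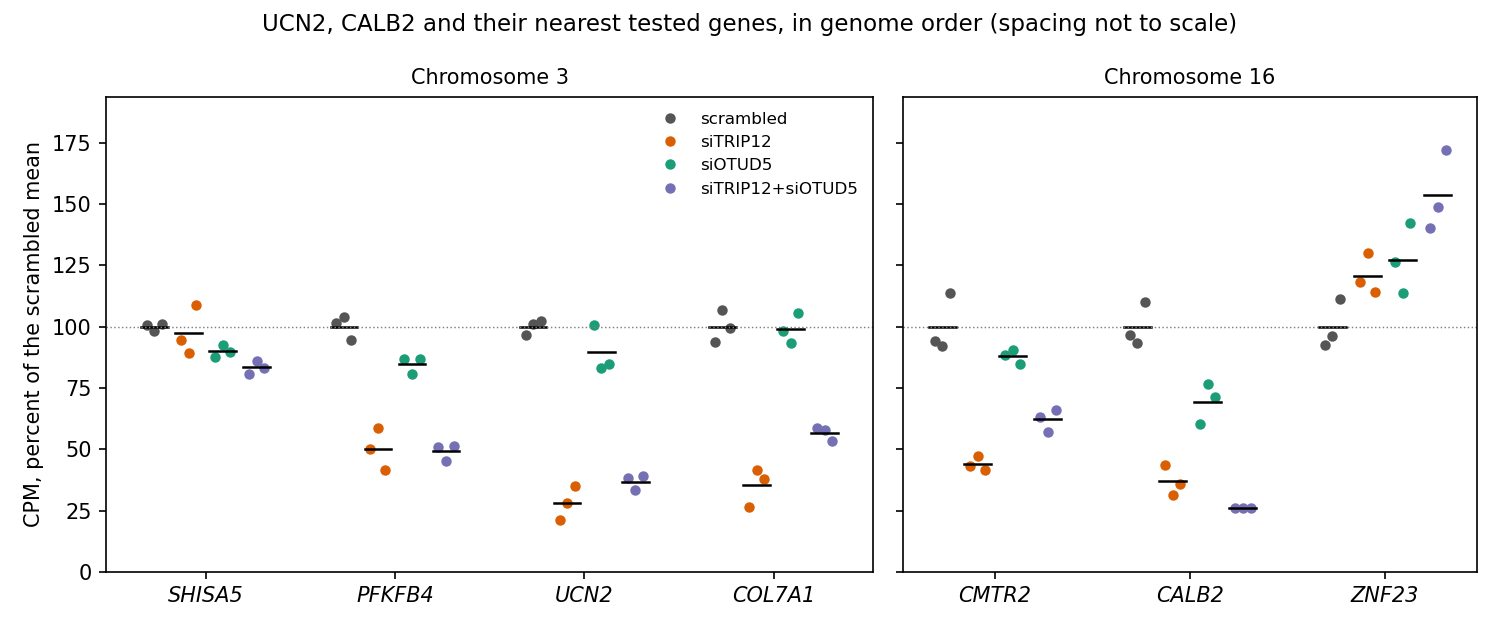
CPM of UCN2 and CALB2 and of their nearest tested genes in each library, as a percentage of the scrambled mean of the gene (points; black bars are group means), in genome order with spacing not to scale. On chromosome 3, PFKFB4, UCN2 and COL7A1 have all 6 libraries with siTRIP12 below 60%, and SHISA5 does not.

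The pathways around the 5 genes were followed through 5 lists. Of the corticotropin-releasing factor family, 2 of 7 genes were tested, UCN2 and UCN. UCN, the related peptide urocortin, was at 1.52 ± 0.397 CPM with scrambled siRNA and 1.18 ± 0.0885 CPM with siTRIP12 and was not called (-0.36 ± 0.23, edgeR adjusted p = 0.26), nor beside siOTUD5 (-0.54 ± 0.23, adjusted p = 0.172). CRHR1, CRHR2 and UCN3 had 0 reads in all 12 libraries, and CRH and CRHBP had at most 2. The receptor of the UCN2 peptide was therefore not detected at this depth.

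Of the formyl peptide and chemoattractant list, 10 of 19 genes were tested, FPR1 among them. Among the other 9, edgeR called 1 higher and 2 lower with siTRIP12, where 14.5% and 17.4% of all tested genes were called, with a median log2 change of -0.04 beside 0.01 over all tested genes. ANXA1, whose protein yields peptides that act on formyl peptide receptors, rose by 0.51 ± 0.06 (adjusted p = 8.05e-06), from 349 ± 31.1 to 498 ± 28.5 CPM. C3AR1, the receptor of complement fragment C3a, fell by 0.52 ± 0.12 (adjusted p = 0.00292), and GNAI3, an inhibitory G protein subunit, by 0.30 ± 0.06 (adjusted p = 0.00044). Beside siOTUD5 none of the 9 was called by edgeR, DESeq2 or limma-voom, and 3 had an unadjusted p under 0.05, each lower. Without the third scrambled library edgeR called 2 of the 9 lower there, and also 2 with only the groups compared in the fit. FPR3 had at most 6 reads.

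Of the Kv1 potassium channels and beta subunits, 3 of 11 genes were tested. KCNAB2, another beta subunit, fell with siTRIP12 both beside scrambled siRNA (-0.44 ± 0.05, edgeR adjusted p = 8.08e-06) and beside siOTUD5 (-0.49 ± 0.05, adjusted p = 2.68e-05). Its level went from 94.1 ± 6.06 to 69.5 ± 0.70 CPM and from 98.4 ± 2.63 to 70.1 ± 1.14 CPM. The pore-forming subunits KCNA1, KCNA2, KCNA3, KCNA4, KCNA5, KCNA7 and KCNA10 had 0 reads in all libraries, and KCNA6 had a mean of at most 0.301 CPM in any group. KCNAB3 transcript was thus present with few or no reads of the Kv1 pore subunits.

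Semaphorin signalling was the best covered, with 28 of 31 genes tested. Among the 27 other than PLXNA4, edgeR called 4 higher and 8 lower with siTRIP12 (median -0.01), and 0 higher and 7 lower beside siOTUD5 (median -0.13, beside 0.01 over all tested genes). Over all tested genes the shares called higher and lower were 14.5% and 17.4% with siTRIP12, and 3.35% and 5.07% beside siOTUD5. No gene was higher there at an unadjusted p under 0.05, nor by DESeq2 or limma-voom, which also called 7 lower. NRP2, a semaphorin co-receptor, fell by 0.87 ± 0.10 with siTRIP12 (adjusted p = 2.44e-06) and by 0.45 ± 0.10 beside siOTUD5 (adjusted p = 0.00726), and NRP1 by 0.25 ± 0.05 (adjusted p = 0.000714) and 0.33 ± 0.05 (adjusted p = 0.000369). SEMA7A, a membrane-anchored semaphorin, fell by 0.58 ± 0.07 (adjusted p = 1.5e-05) and 0.27 ± 0.07 (adjusted p = 0.0293), while SEMA3C, a secreted one, rose by 0.57 ± 0.07 with siTRIP12 (adjusted p = 5.94e-06) and changed by -0.01 beside siOTUD5 (adjusted p = 0.952). SEMA4B fell by 0.67 ± 0.10 (adjusted p = 0.000196) and 0.49 ± 0.10 (adjusted p = 0.00843), and PLXNB3 fell beside siOTUD5 (-0.72 ± 0.17, adjusted p = 0.0169) and was not called beside scrambled siRNA (-0.22 ± 0.17, adjusted p = 0.375). The 7 calls beside siOTUD5 became 3 without the second siOTUD5 library or the first double-knockdown library, 4 without the third library of either group, and 10 without the third scrambled library. With only the groups compared in the fit, 1 was called higher and 10 lower. With siOTUD5 alone edgeR called 10 of the 27 higher and 3 lower, where 11.4% and 11.9% of all tested genes were. SEMA7A stood at 157% of its scrambled mean with siOTUD5 and at 130.1% in the double knockdown, and NRP1 at 122.3% and 97.4%. PLXNB3 stood at 141.1% and 85.9%, SEMA4B at 100.1% and 71.1%, and NRP2 at 67.8% and 49.8%. A fall beside siOTUD5 thus did not always end far below the scrambled level.

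Within the plexin A receptors the 4 genes did not move alike. PLXNA1 fell with siTRIP12 (-0.51 ± 0.13, edgeR adjusted p = 0.00928), PLXNA2 rose (0.60 ± 0.14, adjusted p = 0.00671) and PLXNA3 changed by 0.25 ± 0.16 (adjusted p = 0.257). Beside siOTUD5 none of these 3 was called, with adjusted p of 0.18 for PLXNA1, 0.493 for PLXNA2 and 0.684 for PLXNA3. Per length, PLXNA1 was the most abundant in scrambled cells at 59.4 FPKM, against 7.75 for PLXNA2, 2.91 for PLXNA3 and 1.07 for PLXNA4.

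**Figure D4:**
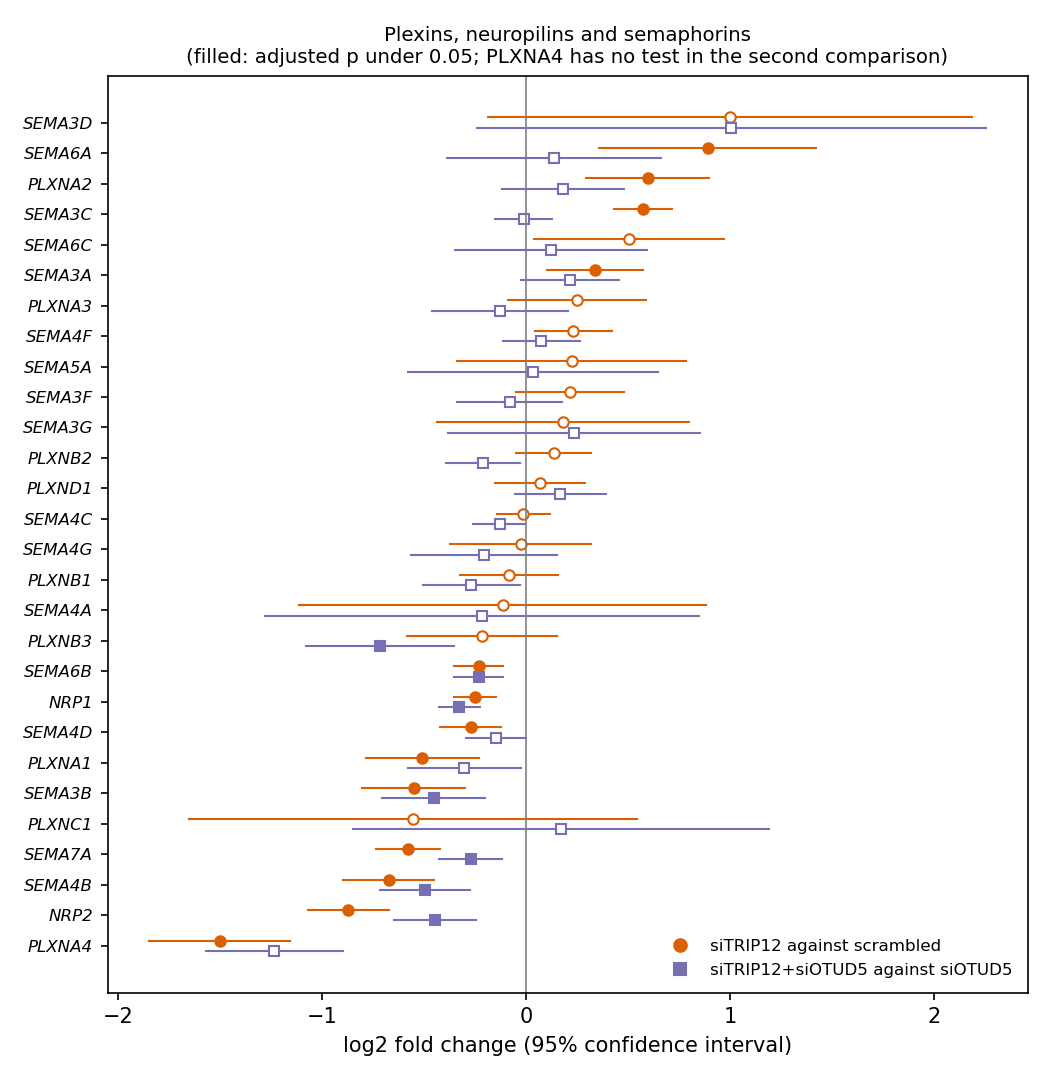
Log2 fold change with 95% confidence interval of the 28 tested plexins, neuropilins and semaphorins with siTRIP12 against scrambled siRNA (circles) and beside siOTUD5 (squares), ordered by the former. Filled symbols passed an adjusted p of 0.05; PLXNA4, at -1.50 and -1.23, is the lowest row and has no test in the second comparison, which chose it.

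Of the EF-hand calcium-binding genes, 17 of 24 were tested. Among the 16 other than CALB2, edgeR called 7 lower and 0 higher with siTRIP12 (median -0.18), and 5 lower and 0 higher beside siOTUD5 (median -0.14), against the same all-gene shares of 17.4% and 14.5%, and 5.07% and 3.35%. None was higher in either comparison at an unadjusted p under 0.05, nor by DESeq2 or limma-voom. CALM3, a calmodulin gene, fell from 369 ± 9.14 to 158 ± 11.7 CPM with siTRIP12 (-1.22 ± 0.06, adjusted p = 5.85e-11), and by 0.77 ± 0.06 beside siOTUD5 (adjusted p = 2.33e-07). S100A10, the partner of annexin A2, fell from 137 ± 18.0 to 59.5 ± 4.61 CPM (-1.20 ± 0.08, adjusted p = 7.22e-09), and by 0.59 ± 0.08 beside siOTUD5 (adjusted p = 0.000178). In both genes the fall was smaller beside siOTUD5, with an interaction of 0.45 for CALM3 (adjusted p = 0.0016) and 0.61 for S100A10 (adjusted p = 0.00277). S100A6 fell by 0.38 ± 0.07 (adjusted p = 0.000447) and 0.57 ± 0.07 (adjusted p = 7.67e-05), with an interaction of -0.19 (adjusted p = 0.254). HPCAL1 fell by 0.23 ± 0.06 (adjusted p = 0.00707) and 0.46 ± 0.06 (adjusted p = 0.000143), with an interaction of -0.23 (adjusted p = 0.107). The near relatives CALB1, PVALB and OCM had 0 reads in all libraries.

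CALB2, PLXNA4 and FPR1 are also known from neurons, mesothelium or leukocytes, so markers of those cells were read. Of 10 neural markers, 4 were tested and STMN2, ELAVL3, ELAVL4 and SOX10 had 0 reads. Their sum was 3.77 to 5.07 CPM with scrambled siRNA, 4.43 to 6.28 with siTRIP12, 3.73 to 5.07 with siOTUD5 and 3.67 to 5.01 in the double knockdown, so it did not fall with siTRIP12. Of 6 mesothelial markers, 2 were tested, and ITLN1 and PRG4 had 0 reads. The mesothelial sum was 0.746 to 1.62 CPM with scrambled siRNA and 1.60 to 2.68 CPM with siTRIP12. It was 1.19 to 2.20 CPM with siOTUD5 and 1.74 to 2.47 CPM in the double knockdown. Of 10 leukocyte markers, 3 were tested, S100A8 had 0 reads, PTPRC had at most 4, and the sum, nearly all CSF1R, was 28.5 to 43.2 CPM with scrambled siRNA and 36.7 to 41.2 CPM with siTRIP12.

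The neural list had 1 of its 4 tested markers called higher with siTRIP12, where 14.5% of tested genes were. The mesothelial sums of the scrambled and siTRIP12 libraries overlapped only at their edge. The mesenchymal sum was 4756 to 5261 CPM with siTRIP12 and 5540 to 5590 CPM in the double knockdown, against 6350 to 6616 CPM with scrambled siRNA and 6241 to 6624 CPM with siOTUD5, and 6 of 7 markers were called lower with siTRIP12, where 17.4% of tested genes were. Beside siOTUD5 4 of the 7 were called lower and 1 higher, where 5.07% and 3.35% of tested genes were. Over the alternative settings these counts ran from 2 to 6 lower and from 0 to 1 higher. The epithelial sum, nearly all KRT8 and KRT18, was 353 to 398 CPM with siTRIP12 and 432 to 444 CPM in the double knockdown, against 491 to 529 CPM with scrambled siRNA and 452 to 470 CPM with siOTUD5. EPCAM had at most 2 reads and GRHL2 had 0. The part of these shifts in the falls of the 5 genes was not tested.

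The 5 genes followed each other across the 12 libraries, which is what the choice selects for. Pearson r of log2 CPM ran from 0.646 for CALB2 with KCNAB3 to 0.929 for FPR1 with PLXNA4, as a description over libraries that share groups and depth. Over all other tested genes, CALB2 was most like MAP2K6 (0.976), a kinase upstream of p38, then LRFN1 (0.974) and PHC2 (0.972). UCN2 was most like CGB8 (0.985), a chorionic gonadotropin beta gene with near-identical copies whose reads are hard to assign, then NIBAN2 (0.983) and OXA1L (0.978). FPR1 was most like TFG (0.987), ENC1 (0.984) and PLEKHA2 (0.979), KCNAB3 like BMP1 (0.961), STX1A (0.959) and CUEDC1 (0.951), and PLXNA4 like CNIH3 (0.984), STEAP3 (0.98) and CMTM4 (0.978).

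A high r did not mean an equal fall. TFG was at 62.1% of its scrambled mean with siTRIP12 and 77.1% in the double knockdown, where FPR1 was at 23.8% and 44.3%. CNIH3 was at 74.3% and 80.7%, where PLXNA4 was at 35.3% and 48.2%. MAP2K6 came closer to its partner: it was at 42.3% with siTRIP12, 68.8% with siOTUD5 and 35.7% in the double knockdown, the same order of groups as CALB2 at 36.9%, 69.5% and 26.0%.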

How the data were processed

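RNA of HT1080 cells was sequenced as stranded mRNA libraries, per the labels' protocols, in 4 groups of 3 libraries. Per the submitters' processing notes, HISAT2 and StringTie were among the tools and GRCh38 was the build, with no versions given. The deposited table of the authors holds whole-number read counts per gene, used for all tests, and FPKM and TPM values, of which the FPKM are printed as levels per length and the TPM were not used. Whether reads or fragments were counted, and by strand, is not given in the sources used here.

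From the counts, 30144 genes were removed by edgeR's filterByExpr and 16283 were tested with edgeR 4.0.16 in R 4.3.3: TMM scaling, 1 mean per group over all 12 libraries, robust quasi-likelihood test, Benjamini-Hochberg adjustment over all tested genes, called at an adjusted p under 0.05. Standard errors are the log2 change divided by the square root of F. CPM use TMM-scaled library sizes. Totals of 37912312 to 43881471 reads per library set the precision. With 3 against 3 libraries an exact permutation test cannot go below p = 0.1, so single genes were not tested that way. The highest correlation of log2 counts between 2 libraries was 0.9856, so none was treated as a duplicate.

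The 5 genes, the gene lists and the markers were chosen with earlier results of these data known. Named genes were the 5, the targets, the 3 next in the choosing comparison, up to 4 called genes per list by smallest p with the other plexin A genes added after their values were seen, the nearest tested neighbours, and the 3 most correlated genes each; some list genes are not reported here. Gene symbols come from the table and loci from RefSeq GRCh38.p14, which listed 44698 of the 46427 gene IDs. For the 5 genes, comparisons that share libraries with the choosing one are given without the tests first planned. The analysis was tested on simulated counts. Alternatives were other scaling, no filter, a replicate block, only the groups compared, DESeq2 1.42.0, limma-voom (limma 3.58.1) and leaving out each library.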

Additional observations from a re-analysis of the deposited data

How the results depend on the processing

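The 5 genes and the counts of called genes in the 6 comparisons were followed. Under another scaling, filter, tool, block or set of groups 241 values were rated the same, and 408 with a library left out. For counts, the same meant within 1.5 times. For the 5 genes in the choosing comparison it meant the same direction and a shift below the SD within groups. In the other comparisons it meant the same side of the threshold. Values not called could change direction there, as the CALB2 and KCNAB3 interactions and the FPR1 difference with siOTUD5 did (lowest -0.10, -0.06 and -0.01). Under the other settings 1 count moved further and 4 values gained a call. With a library left out 13 counts moved further, 5 values gained a call and 6 lost it. No called value changed direction. The falls of all 5 genes with siTRIP12 alone kept their call under all 19 alternatives, from -2.18 to -1.98 for FPR1, -2.02 to -1.66 for UCN2, -1.88 to -1.22 for KCNAB3, -1.68 to -1.38 for PLXNA4 and -1.57 to -1.32 for CALB2. The CALB2 difference with siOTUD5 ran from -0.61 to -0.43.

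The number of genes called in the double knockdown against siOTUD5 was 1370, rose to 2936 with only the groups compared, and ranged from 692 to 2474 with a library left out: 2474 without the third scrambled library, 784, 712 and 740 without siOTUD5 library 1, 2 and 3, and 692 and 809 without double-knockdown library 1 and 3. The interaction called 1329 genes, and 734 to 1794 with a library left out: 846 without the third siTRIP12 library, 844, 782 and 734 without each siOTUD5 library, and 765 and 768 without double-knockdown library 1 and 3. The double knockdown against siTRIP12 called 2557 genes, and 1495 to 3825 with a library left out, the lowest without the first double-knockdown library.

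In the double knockdown against siTRIP12, DESeq2 gave 0.40 for UCN2 and 0.45 for PLXNA4, and the fit of only the groups compared gave 0.45 for PLXNA4. These and the values below moved across the threshold of the computed test, which is not used for these 5 genes in comparisons that share libraries with the choosing one. With a library left out the values ran from 0.23 to 0.58 for UCN2, 0.36 to 0.58 for PLXNA4, 0.33 to 0.99 for KCNAB3, 0.74 to 1.01 for FPR1 and -0.61 to -0.37 for CALB2. Against scrambled siRNA, KCNAB3 in the double knockdown ran from -1.08 to -0.72. The interaction of UCN2 ran from 0.38 to 0.74 with a library left out and was 0.55 with DESeq2. The cause of these shifts was not tested. Of the lists, the EF-hand genes called lower beside siOTUD5 went from 5 to 8 with only the groups compared and stayed between 4 and 7 with a library left out.

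Same-numbered libraries of different groups did not deviate together (18 pairs, correlation -0.073 to 0.047), so the samples were not treated as paired. These correlations cannot show whether same-numbered libraries were prepared together. A replicate block changed no call of the 5 genes with siTRIP12: with it, UCN2 fell by 1.84 (adjusted p = 1.05e-07), its interaction was 0.56, the CALB2 difference with siOTUD5 was -0.52, and 1220 genes were called in the double knockdown against siOTUD5 and 1140 in the interaction.

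At 20 to 31 reads per siTRIP12 library for FPR1 and 39 to 89 for KCNAB3, the intervals of these 2 genes were the widest of the 5.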
